A study of Mus musculus with 6 samples.

Results

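Integrins, the laminins they bind, and the other receptors and scaffolds of the basement membrane were followed in cultured mouse astrocytes in which the chromatin remodeller gene Chd7 was targeted. The members were the array probes whose gene symbol names an integrin alpha or beta chain or a laminin chain, or is Dag1, Nid1, Nid2, Hspg2, Agrn, Fn1 or Vtn. Of 23473 probes on the array, for 19321 named genes, 50 had such a symbol, and 47 of these, for 44 genes, had an intensity in the authors' table on at least 3 of the 6 arrays. They covered 16 integrin alpha genes, 8 integrin beta genes, 10 laminin chain genes and the 7 genes given by name. The pattern also took in Itgb1bp1, Itgb1bp2 and Itgb3bp, whose products are named for binding the tail of an integrin beta chain and are no integrins themselves. The 3 matched probes left out were those of Itgam, with a value on 1 array, Itgb6, with values on 2, and a second Itga10 probe, with values on 0.

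The Cre group was 3 samples of astrocytes that received a lentivirus carrying the Cre recombinase, and the control group was 3 samples that received a control lentivirus. All 6 came from the brain cortex of C57BL/6J pups at birth (P0) and carried floxed Chd7 alleles (Chd7flox/flox), so that the controls had the same alleles without the recombinase. The cultures were kept in medium with 10% serum, FGF2, EGF and B-27, and RNA was taken 3 days after infection. No group had Cre without a floxed Chd7, so what the recombinase does by itself and what follows from loss of Chd7 cannot be told apart. Whether the 3 samples of a group are separate cultures or animals is not in the labels, so a p-value here covers the spread among these samples, part of which may be technical.

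Integrins are heterodimers of an alpha and a beta chain that tie the cytoskeleton to the extracellular matrix, and the alpha chain largely sets which ligand is bound. Laminins are trimers of an alpha, a beta and a gamma chain that polymerise into the basement membrane, where nidogens and perlecan join them to the collagen IV network and agrin, integrins and dystroglycan join them to the cell. In the brain, astrocyte endfeet meet such a basement membrane around blood vessels and below the pia, and dystroglycan on the endfoot membrane is linked through the dystrophin complex to the water channel aquaporin-4.

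RefSeq promoter sequences (build GRCm38.p6, 250 bases before to 50 bases after the gene start) are printed for 4 members named in the results. No promoter was found by symbol for Fn1, Itga6 or Lama4, so none is printed for them. Nid1 and Itgb1 had some of the widest ranges between same-numbered arrays, both Itgav probes followed a like order, and Itga1 was among the members that were higher in Cre cultures in every same-numbered pair. The Nid1 promoter lies on the plus strand at chr13:13437352-13437651, that of Itgb1 on the plus strand at chr8:128685404-128685703, that of Itgav on the plus strand at chr2:83724147-83724446, and that of Itga1 on the minus strand at chr13:115101915-115102214. Capitals mark GC boxes (GGGCGG or, on the other strand, CCGCCC) and TEAD core motifs (GGAATG or CATTCC).
Nid1: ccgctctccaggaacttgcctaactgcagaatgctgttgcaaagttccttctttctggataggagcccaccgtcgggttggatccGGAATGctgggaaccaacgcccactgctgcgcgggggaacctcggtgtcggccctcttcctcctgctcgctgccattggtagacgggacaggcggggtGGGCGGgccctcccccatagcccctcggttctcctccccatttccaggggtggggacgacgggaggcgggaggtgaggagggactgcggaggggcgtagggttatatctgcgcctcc
Itgb1: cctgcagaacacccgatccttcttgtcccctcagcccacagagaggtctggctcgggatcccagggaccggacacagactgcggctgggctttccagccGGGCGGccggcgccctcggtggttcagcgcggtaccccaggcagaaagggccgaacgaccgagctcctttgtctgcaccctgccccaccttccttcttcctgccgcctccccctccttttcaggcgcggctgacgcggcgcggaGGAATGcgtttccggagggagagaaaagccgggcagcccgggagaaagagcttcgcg
Itgav: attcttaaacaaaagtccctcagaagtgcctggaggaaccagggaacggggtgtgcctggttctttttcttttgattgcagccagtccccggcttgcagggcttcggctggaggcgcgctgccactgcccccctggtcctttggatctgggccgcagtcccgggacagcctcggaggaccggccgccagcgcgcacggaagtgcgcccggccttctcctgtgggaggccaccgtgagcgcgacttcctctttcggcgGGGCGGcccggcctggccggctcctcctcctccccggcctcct
Itga1: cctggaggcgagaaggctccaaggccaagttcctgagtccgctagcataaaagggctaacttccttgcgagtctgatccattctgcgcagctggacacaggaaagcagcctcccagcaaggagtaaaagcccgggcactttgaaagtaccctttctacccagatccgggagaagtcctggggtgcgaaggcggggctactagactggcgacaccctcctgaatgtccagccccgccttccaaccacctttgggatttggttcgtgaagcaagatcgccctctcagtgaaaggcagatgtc
The Nid1 and Itgb1 promoters each held 1 GC box and 1 TEAD core, the Itgav promoter held 1 GC box and 0 TEAD cores, and the Itga1 promoter held neither. None of the 4 held an AP-1 site (TGANTCA, which reads the same on both strands). Of the members, 29 genes had a sequence in the table, with 33 promoters. A GC box was found in 17 of these 33 (51.5%), against 35.7% of all 32851 promoters, a TEAD core in 5 (15.2%, against 14.7%) and an AP-1 site in 3 (9.09%, against 7.81%). These matches describe the letters of the windows only. GC content was 64.7% for Nid1, 67.3% for Itgb1, 67.3% for Itgav and 56.7% for Itga1.

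The targeted gene was read first. The brighter Chd7 probe, M300016343, had authors' values of 8, 7 and 8 on the Cre arrays, against 42, 89 and 46 on the control arrays. Its log2 intensity averaged 5.99 ± 0.02 in Cre and 7.12 ± 0.32 in control cultures (SD, n = 3 each), a difference of -1.13 (SE 0.16, limma adjusted p = 0.401), with no overlap between the groups. A second Chd7 probe, M400002483, lay close to background and differed by -0.11 (SE 0.06). The position of either probe with respect to the loxP sites is not known here, so neither value gives the share of alleles recombined. Between 83.7 and 87.6% of probes were above background on Cre arrays and between 87.6 and 90.7% on control arrays, where background was the mean of the blank spots plus 2 SD. Of the astrocyte marker genes, all 14 were above background on all 6 arrays. The same held for 18969 of the 20747 probes above background on at least 3 arrays.

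Cre and control cultures were then compared for the members. A probe was tested where it was above background on at least 3 arrays, which left 46 of the 47 members. The laminin chain gene Lamb3, above background on 1 array, was not tested. Of the 46, 42 were above background on all 6 arrays, where 18969 of all 20747 probes tested were. A mean log2 intensity under 6.2, called dim here, was seen in 19 of them (41.3%) and in 37.9% of all probes tested. In limma, 0 of the 46 members passed an adjusted p of 0.05, where 0 of 20747 probes (0.0%) passed. The smallest adjusted p was 0.9001 among members and 0.401 over all probes. At an unadjusted p under 0.05 there were 0 members, where 1159 of all probes (5.59%) lay below that line.

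Same-numbered arrays of the groups resembled each other, so the fit was repeated with the replicate number as a block. In limma with the block, 2 members were at an unadjusted p under 0.05, where 1932 of all probes (9.31%) were. These were Itga6 (limma unadjusted p = 0.0451) and Itga1 (0.0454), both higher in Cre, where 4.51% of all probes were higher at that line. Both had an adjusted p of 0.520 and did not pass. The number passing the adjusted threshold was again 0 among members and 0 over all probes. In the authors' values 3 members lay below an unadjusted p of 0.05, where 9.93% of all probes did, Lamc3 higher and Lamb1 and Itgb1bp1 lower in Cre, and 0 passed the adjusted threshold.

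The member differences were small. Their median was 0.03 log2 units, against -0.0005 over all probes, and they ranged from -0.26 for Nid2 to 0.27 for Itga6. In the 3 same-numbered pairs the member median was 0.01, 0.02 and 0.04. Of the 46 members, 30 were higher and 16 lower in Cre, where 49.7% of all probes were higher. In the authors' table, whose median difference over all probes was -0.09, 13 members were higher and 31 lower, where 20.7% of all probes were higher. The split was 28 higher and 18 lower with median scaling and 30 and 16 with cyclic loess, so neither of these scalings alone gave the authors' split. That table differs in background, empty cells and scaling together, and which of these moves the split was not tested. The member median there was -0.06.

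The 95% interval of the difference lay within 2-fold in either direction for 44 of 46 members, where this held for 98.5% of all probes, and Nid1 and Fn1 were the exceptions. It lay within 1.5-fold for 36 members, where this held for 90.1% of all probes. With the replicate block the interval lay within 2-fold for all 46 (99.5% of all probes) and within 1.5-fold for 42 (94.3% of all probes). The dim probes limit this reading, since the offset added to the intensities narrows their differences.

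**Figure D1:**
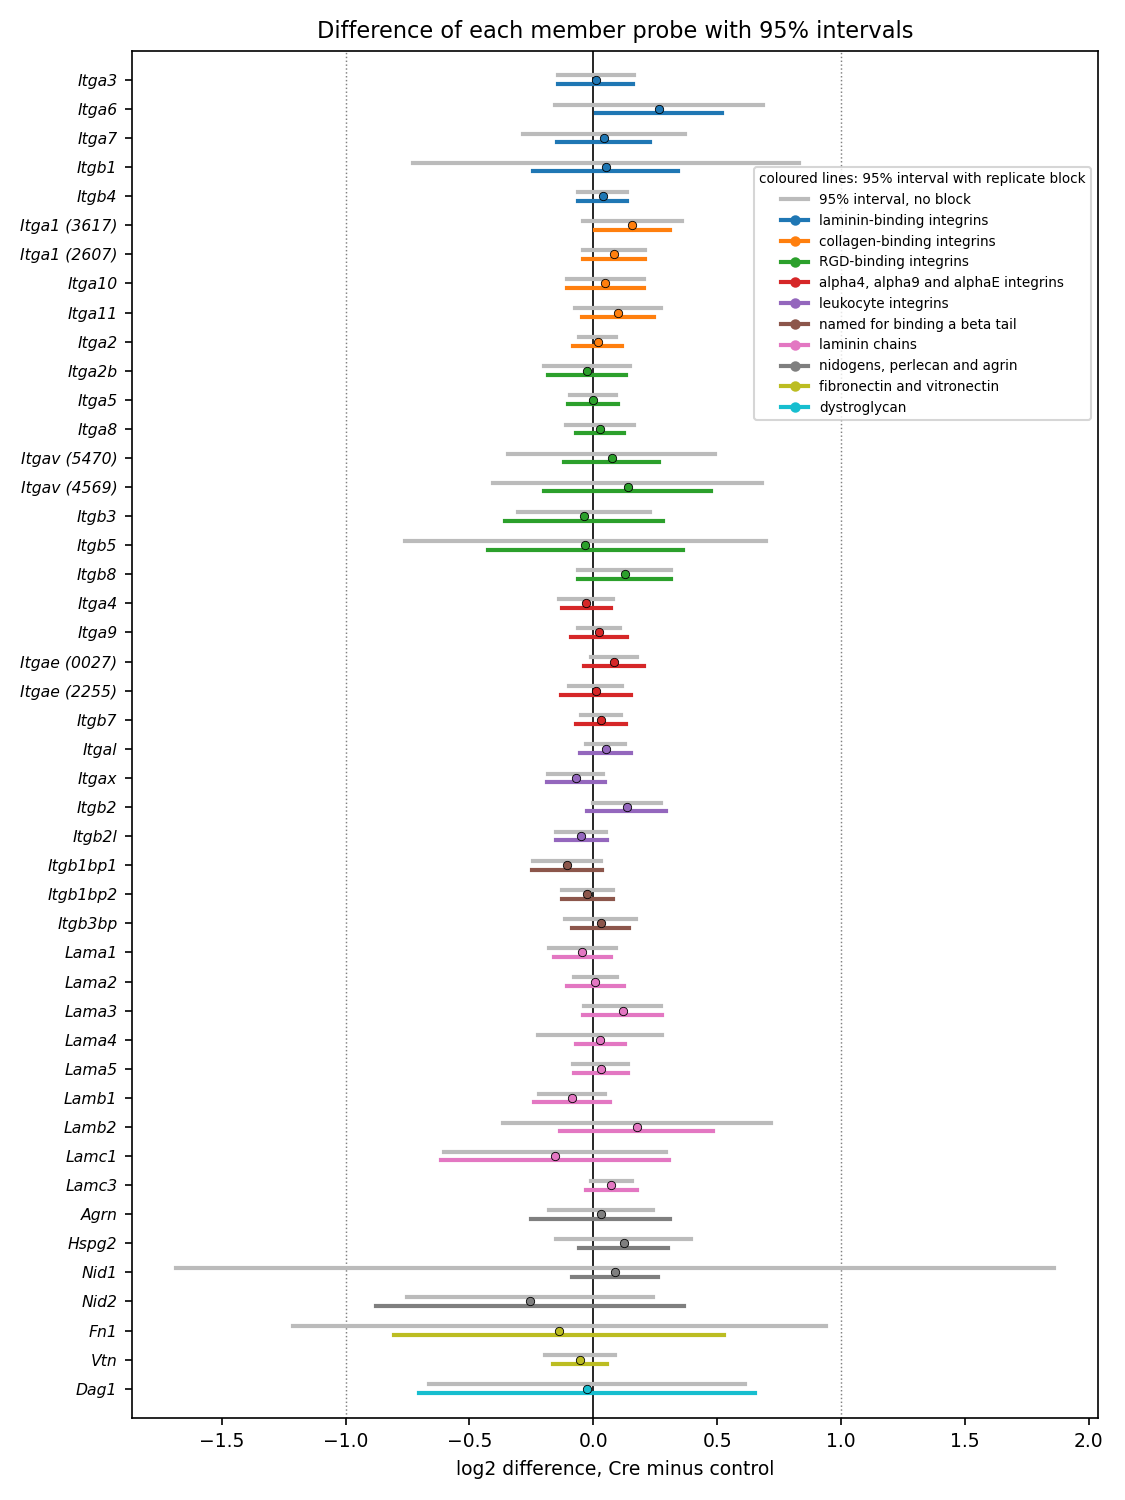
Log2 difference (Cre minus control) of the 46 tested member probes on the horizontal axis, 1 row a probe, coloured by role. Grey lines are 95% intervals without a block, coloured lines are 95% intervals with the replicate block, and dotted lines mark 2-fold. The points lie between -0.26 and 0.27, and the grey lines of Nid1 and Fn1 cross the dotted lines.

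The groups did not overlap for 6 of 46 members, where the same held for 10.5% of all probes. Of these, Itgb2, a probe of Itgae, Lamc3, Itgal and Itga2 were higher in Cre (10.9% of members, against 5.23% of all probes). Itgb1bp1 was lower (2.17%, against 5.27%). All the higher ones were dim, with a mean log2 intensity under 6.2, and the authors' value of Itga2 was 7 on all 6 arrays. Higher values in Cre in every same-numbered pair were seen for 17 members (37.0%, against 14.6% of all probes), with differences of 0.02 to 0.27. The dim ones among them were Itgb2, a probe of Itgae, Itgb7, an Itga1 probe, Itga2, Lama4, Lamc3 and Itgal. The others were the brighter Itga1 probe, Itga6, Itga8, Itga11, Itgb4, Itgb8, Lama3, Lamb2 and Nid1. The pairs were read on the log2 scale of the main fit only. In the authors' values 13 members were higher in Cre and 31 lower, where 20.7% of all probes were higher. Lower values in every pair were seen for 5 members (10.9%, against 15.4%), with differences of -0.11 to -0.03. These 5 were Itga4, Vtn, Itgax, Itgb2l and Itgb1bp1.

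All 5 laminin-binding integrin probes were higher in Cre, with a median of 0.04, but only 1 of the 5 was higher in the authors' values, 2 with the local background column and 3 with median scaling. Itgb1, the beta chain shared by most of these receptors, had log2 intensities of 11.57, 10.56 and 10.72 on the Cre arrays, against 11.26, 10.60 and 10.85 on the control arrays. Its authors' values were 1740, 755 and 953 in Cre, against 1364, 997 and 1176 in control cultures. Replicate 1 was the highest in both groups and the groups overlapped, with a difference of 0.05 (SE 0.31, 95% interval -0.73 to 0.83, limma adjusted p = 0.999). With the block that interval was -0.24 to 0.34. The difference was -0.26 without Cre replicate 1 and -0.10 without control replicate 2.

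Itga6, the alpha chain of 2 laminin receptors and a known marker of neural stem cells, had the largest difference among the members. It read 7.65, 7.07 and 7.17 log2 units in Cre, against 7.16, 6.89 and 7.05 in control cultures, and its authors' values were 90, 43 and 55 in Cre, against 55, 45 and 51 in control. The Cre array was the higher one of each pair on the log2 scale, by 0.50, 0.18 and 0.12, and Cre replicate 1 lay above all the others. The difference was 0.27 (SE 0.17, 95% interval -0.15 to 0.68, limma adjusted p = 0.999), and with the block 0.01 to 0.52. Without Cre replicate 1 it was 0.09, and with the local background column it turned to -0.17. Itga3, Itga7 and Itgb4, the other chains of this group, differed by 0.01 (SE 0.06), 0.04 (SE 0.13) and 0.04 (SE 0.04), and their groups overlapped.

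The 5 collagen-binding integrin probes were all higher in Cre, with a median of 0.08, and 3 of 5 were higher in the authors' values and 4 of 5 with the local background column. Itga1, which forms a collagen receptor with the beta1 chain, has 2 probes. The brighter, M300013617, had 8.21, 8.06 and 7.96 log2 units in Cre, against 7.94, 7.99 and 7.82 in control cultures. Of the Cre arrays, only replicate 3 lay within the control range, and the difference was 0.16 (SE 0.08, limma adjusted p = 0.972). With the block its 95% interval was 0.01 to 0.31. Without Cre replicate 1 the difference was 0.09, and with the local background column it turned to -0.08. In the authors' values this probe read 145, 110 and 116 in Cre, against 114, 139 and 110 in control cultures. The other Itga1 probe, M400002607, read 6.196, 6.074 and 6.182 in Cre, against 6.032, 6.044 and 6.124 in control, a difference of 0.08 (SE 0.05). Itga2, Itga10 and Itga11, the other collagen-binding alpha chains, differed by 0.02, 0.05 and 0.10, and the Itga2 probe lay close to background.

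RGD-binding integrins recognise a short arginine, glycine and aspartate motif in fibronectin, vitronectin and latent TGF-beta. Of their 8 probes, 4 were higher and 4 lower in Cre, with a median of 0.01, while 1 was higher and 7 lower in the authors' values. Itgav, the alpha chain that most of these receptors share, has 2 probes. M400014569 read 9.54, 9.35 and 9.21 log2 units in Cre, against 9.70, 8.98 and 8.99 in control cultures, a difference of 0.14 (SE 0.22) that ran from 0.02 without control replicate 2 to 0.38 without control replicate 1. M300005470 read 8.69, 8.21 and 8.18 in Cre, against 8.47, 8.28 and 8.11 in control, a difference of 0.07 (SE 0.17). For both probes replicate 1 was the highest in each group, and the groups overlapped. The authors' values gave -0.03 and -0.08 for the 2 probes. For M300005470 the difference also turned without Cre replicate 1 (-0.09) and without control replicate 3 (-0.02).

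Itgb8 encodes the beta chain that pairs with Itgav on astrocytes and activates latent TGF-beta. It read 6.40, 6.49 and 6.51 log2 units in Cre, against 6.36, 6.21 and 6.47 in control cultures. The Cre array was higher in each pair, while the groups overlapped, and the difference was 0.13 (SE 0.08, limma adjusted p = 0.999). Without control replicate 2 it was 0.06, and without control replicate 3 it was 0.19. Itgb5, another partner of Itgav, named after its values were seen, read 9.34, 8.41 and 8.56 in Cre, against 9.12, 8.80 and 8.47 in control, a difference of -0.03 (SE 0.29). Its replicate 1 was the highest array of each group. The platelet chains Itga2b and Itgb3 stood at -0.03 and -0.04, and Itga5, which forms the main fibronectin receptor with Itgb1, at -0.0018. The Itga2b and Itga5 probes had a mean under 6.2, close to background, which limits what their differences show. Itga8, a receptor chain for nephronectin, differed by 0.03.

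Among the alpha4, alpha9 and alphaE chains and their partner Itgb7, 4 of 5 probes were higher in Cre and 2 of 5 in the authors' values, and the median was 0.02. Itgae encodes the alpha chain with which lymphocytes bind E-cadherin. Its probe M200000027 read 5.89, 5.90 and 5.86 log2 units in Cre, against 5.79, 5.76 and 5.84 in control cultures, a difference of 0.08 (SE 0.04, limma adjusted p = 0.934). The groups did not overlap for that probe. For M400012255, the brighter of the Itgae probes, which read 6.34, 6.41 and 6.36 in Cre, against 6.37, 6.30 and 6.40 in control, they did overlap, with a difference of 0.01 (SE 0.04) that was -0.01 without Cre replicate 2 and -0.02 without control replicate 2. Of these 5 probes, 4 had a mean under 6.2, and Itga4 was above background on 2 of 3 Cre arrays, Itgb7 on 2 of 3 control arrays.

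Leukocyte integrins, the beta2 family of microglia and other immune cells, went both ways with 2 probes higher and 2 lower in Cre. Itgb2, the shared beta chain, had the smallest unadjusted p of all members. It read 6.21, 6.11 and 6.13 log2 units in Cre, against 6.00, 6.10 and 5.94 in control cultures. The lowest Cre array lay just above the highest control array, and the difference was 0.14 (SE 0.05, limma unadjusted p = 0.0515, adjusted p = 0.9001). In the authors' values the groups overlapped, at 14, 10 and 12 in Cre, against 9, 12 and 7 in control cultures. Itgal, the alpha chain of a receptor for ICAM proteins, read 5.75, 5.81 and 5.77 in Cre, against 5.73 on each control array, a difference of 0.05 (SE 0.03). Itgax, the alpha chain of a complement receptor, read 5.79, 5.84 and 5.72 in Cre, against 5.82, 5.88 and 5.85 in control, a difference of -0.07 (SE 0.04) that was -0.04 without Cre replicate 3. Itgb2l stood at -0.05 (SE 0.04). All 4 probes had a mean under 6.2, and Itgax and Itgb2l were above background on 2 of 3 Cre arrays.

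Markers of microglia and macrophages were lower in Cre for 15 of the 19 measured of 20 listed, with a median of -0.13. Of the 19, 16 were above background on all 6 arrays and Tmem119, Ptprc and Ly86 on 5. Their mean log2 intensity was 6.33, 6.24 and 6.36 in Cre, against 6.56, 6.45 and 6.44 in control cultures, and their summed authors' values were 430, 360 and 483 in Cre, against 590, 553 and 512 in control. At an unadjusted p under 0.05, 7 markers were lower and 1 higher, where 2.83% of all probes were lower and 2.75% higher. The 1 marker higher at that line was Cd68, at 0.48 (SE 0.08). The complement gene C1qa, among the lower ones, differed by -0.67 (SE 0.11). Itgb2 and Itgal lay above 0 beside these lower markers, and Itgax and Itgb2l below 0. The part of such cells in the leukocyte integrin values was not tested. In bulk samples fewer cells of a type and less RNA per cell cannot be told apart.

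**Figure D2:**
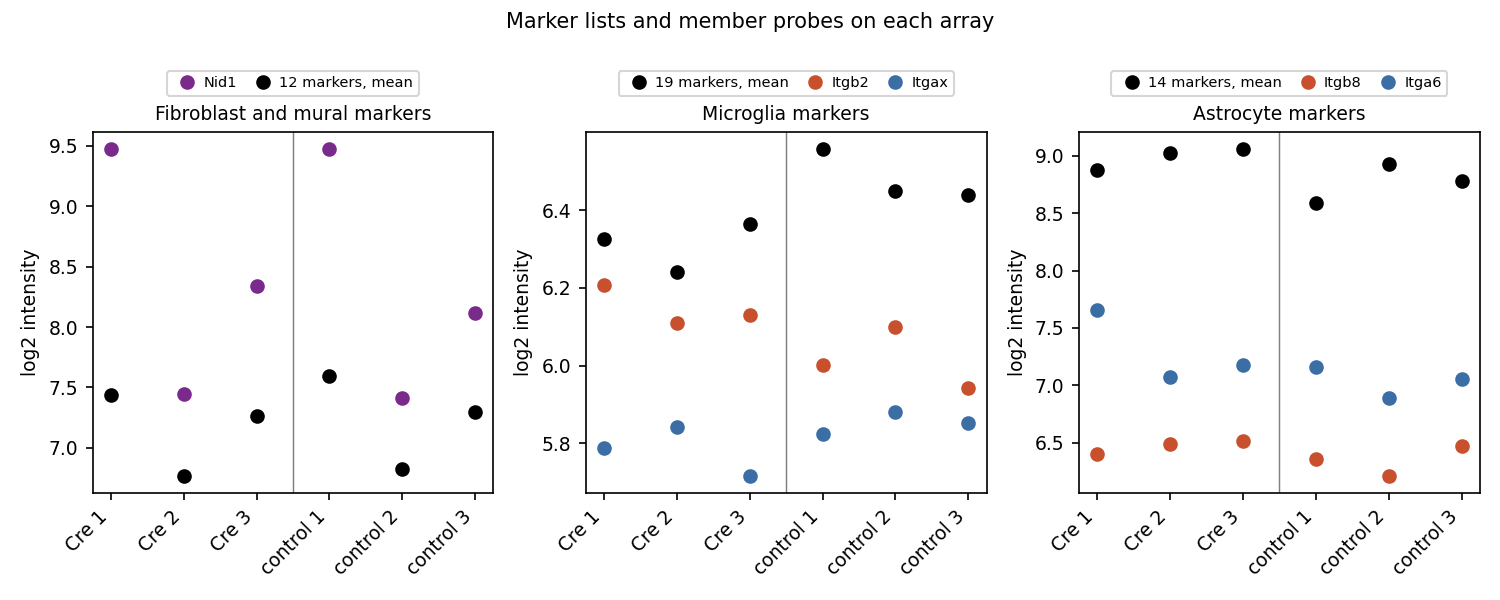
Log2 intensity on each of the 3 Cre and 3 control arrays, for the mean of a marker list (black) and for members set beside it. The fibroblast and mural list (12 markers) and Nid1 both run highest in replicate 1 and lowest in replicate 2 of each group, the microglia list (19 markers) is lower on all 3 Cre arrays than on the controls, and the astrocyte list (14 markers) overlaps between the groups.

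The 3 genes named for binding an integrin beta tail showed 1 higher and 2 lower in Cre. Itgb1bp1 encodes ICAP1, which binds the beta1 tail and holds the receptor inactive. It read 9.43, 9.38 and 9.41 log2 units in Cre, against 9.48, 9.44 and 9.62 in control cultures, and its authors' values were 375, 313 and 368 in Cre, against 382, 444 and 477 in control. All 3 Cre arrays lay below all 3 control arrays on both scales. The difference was -0.11 (SE 0.06, 95% interval -0.24 to 0.03, limma adjusted p = 0.981), and it was -0.05 without control replicate 3. Itgb1bp2, the muscle protein melusin, stood at -0.02 (SE 0.04), and Itgb3bp, a centromere protein, at 0.03 (SE 0.06).

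Of the 9 tested laminin chains, 6 were higher and 3 lower in Cre, with a median of 0.03, while 3 were higher and 6 lower in the authors' values. Among alpha chains, Lama5 read 6.75, 6.72 and 6.66 log2 units in Cre, against 6.67, 6.73 and 6.63 in control cultures, a difference of 0.03 (SE 0.04). Lama3, an epithelial laminin chain, read 6.51, 6.65 and 6.43 in Cre, against 6.44, 6.40 and 6.38 in control. Its Cre array was higher in each pair, with overlap between the groups and a difference of 0.12 (SE 0.06, limma adjusted p = 0.990) that was 0.06 without Cre replicate 2. Lama1, Lama2 and Lama4 differed by -0.04, 0.01 and 0.03. Lama2 is the chain of the laminin that dystroglycan binds in muscle and at glial endfeet, and its probe lay close to background.

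Lamb2, the beta chain of laminins at the neuromuscular junction and in vessel walls, read 9.77, 9.85 and 9.53 log2 units in Cre, against 9.77, 9.79 and 9.07 in control cultures. Replicate 3 was the lowest array of both groups, and the difference of 0.18 (SE 0.22) turned to -0.06 without control replicate 3. Lamb1, the more widespread beta chain, read 6.42, 6.44 and 6.45 in Cre, against 6.61, 6.42 and 6.54 in control, a difference of -0.09 (SE 0.05) that ran from -0.13 without control replicate 2 to -0.05 without control replicate 1. Lamc1, the gamma chain of most laminins, read 7.23, 7.38 and 7.42 in Cre, against 7.51, 7.84 and 7.14 in control, a difference of -0.16 (SE 0.18). The control arrays spanned the Cre arrays on both sides, and without control replicate 2 the Lamc1 difference was 0.02. Lamc3, a gamma chain of restricted tissues, read 5.88, 5.88 and 5.86 in Cre, against 5.82, 5.77 and 5.81 in control. Its groups did not overlap, at a difference of 0.07 (SE 0.03, limma adjusted p = 0.934), close to background.

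**Figure D3:**
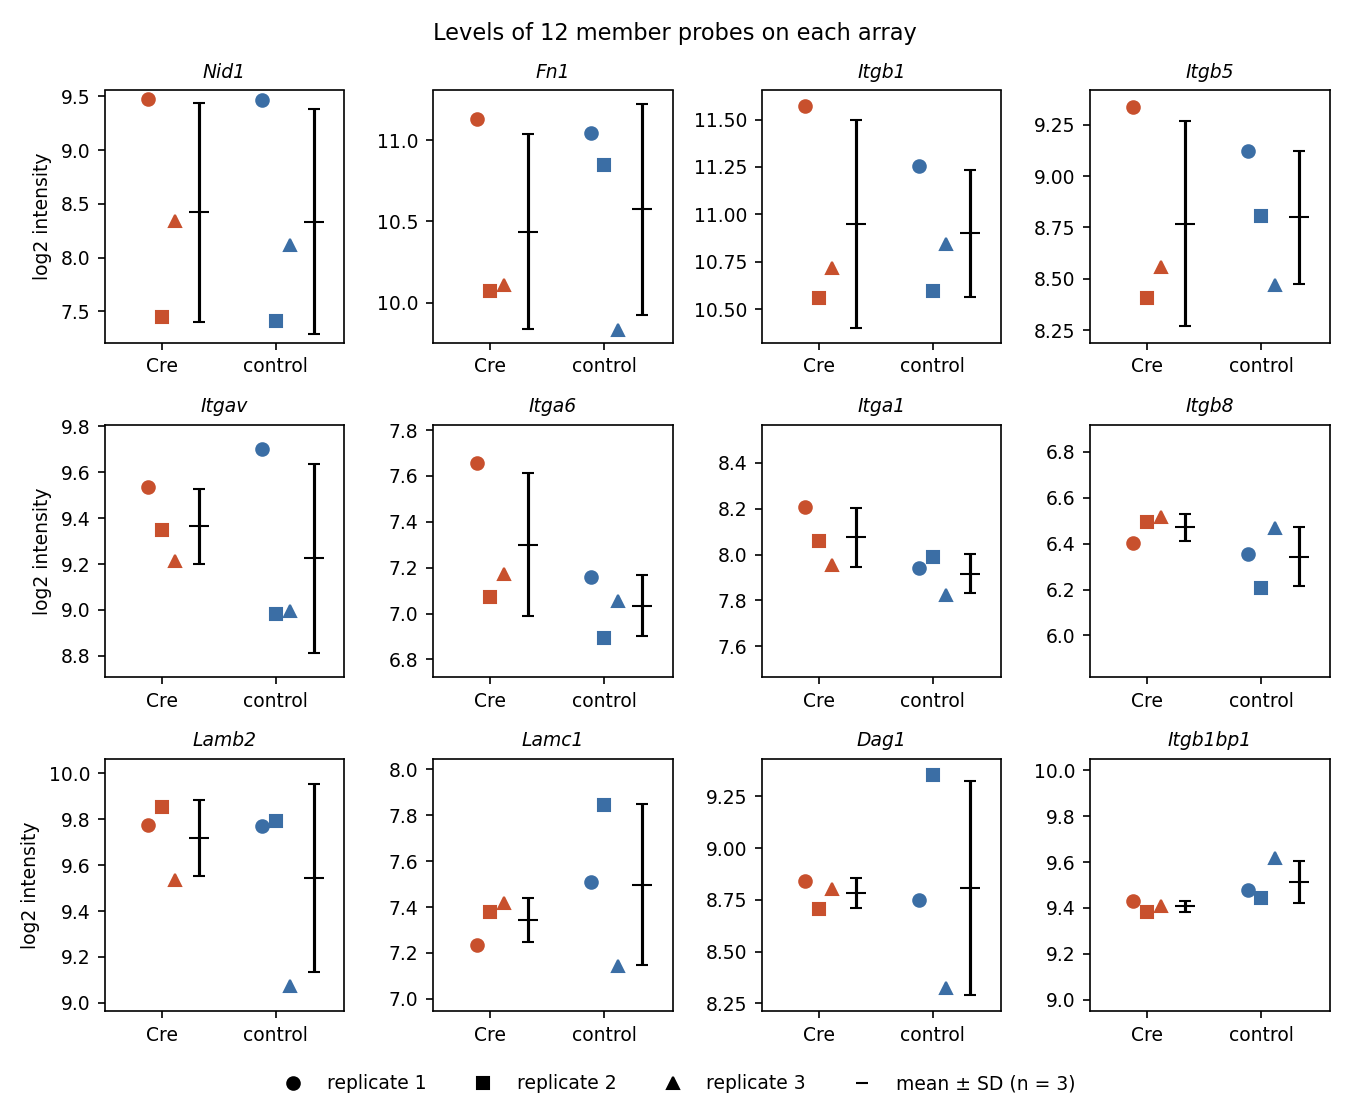
Log2 intensity of 12 member probes on each array, Cre on the left and control on the right of each panel, with symbols for the replicate number and the mean ± SD (n = 3) as a bar. The vertical axes differ between panels. Nid1, Itgb1 and Itgb5 run highest in replicate 1 of both groups, while Dag1 and Lamc1 spread more among the control arrays.

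The linkers nidogen, perlecan and agrin had 3 probes higher and 1 lower in Cre, and 1 higher and 3 lower both in the authors' values and with array weights. Nid1, which joins laminin to collagen IV, varied more between replicate numbers than any other member. It read 9.48, 7.44 and 8.34 log2 units in Cre, against 9.47, 7.41 and 8.12 in control cultures. The authors' values were 387, 63 and 162 in Cre, against 380, 82 and 143 in control cultures. Each array lay within 0.23 log2 units of its same-numbered partner. The difference was 0.09 with an SE of 0.71 and a 95% interval of -1.68 to 1.86, while with the block the SE was 0.06 and the interval -0.08 to 0.26. Without the block it was -0.44 if Cre replicate 1 was left out, -0.37 without control replicate 2 and -0.02 without control replicate 3. Nid2, the other nidogen, named for the lowest difference, had authors' values of 105, 67 and 99 in Cre, against 111, 191 and 91 in control, with a difference of -0.26 (SE 0.20) and overlapping groups. Hspg2, the perlecan gene, stood at 0.12 (SE 0.11), and Agrn at 0.03 (SE 0.08).

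Fn1, the fibronectin gene, read 11.13, 10.07 and 10.11 log2 units in Cre, against 11.04, 10.85 and 9.83 in control cultures. Its authors' values were 1267, 523 and 617 in Cre, against 1178, 1175 and 561 in control. Replicate 1 was high and replicate 3 low in both groups, while replicate 2 was low in Cre and high in control. The difference was -0.14 (SE 0.43, 95% interval -1.21 to 0.94), and it lay above 0 without Cre replicate 2 (0.04), without Cre replicate 3 (0.03) and without control replicate 1 (0.10). Vtn, which encodes vitronectin, stood at -0.05 (SE 0.06) and lay close to background. Dag1, the dystroglycan gene, read 8.84, 8.71 and 8.80 in Cre, against 8.75, 9.35 and 8.32 in control. The 3 Cre arrays lay inside the range of the control arrays, and the difference was -0.02 (SE 0.26). Without control replicate 2 it was 0.25, and with the local background column 0.51.

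The order of the replicate numbers was examined next, in the fit with the block, as a test chosen after the values were seen. At an unadjusted p under 0.05 of an F test for the replicate number there were 10 members (21.7%), where 14.0% of all probes lay below that line, and 0 members and 0 of all probes (0.0%) passed the adjusted threshold. The 10 probes were those of Nid1, Itgb1, Lama4, Itgb5, Lamb2, Itga7, Itga6, Fn1 and both of Itgav. Of these, 8 were highest in replicate 1, against 32.4% of all probes below the line. The order was the same in both groups for 6 of the 10. The F test picks probes whose same-numbered arrays agree, so a like order was in part built in. How often it occurs among all probes below the line was not counted. The labels do not say what the numbers mark.

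The means of same-numbered arrays spanned more than 2-fold for 2 members (4.35%), where 0.694% of all probes did. These were Nid1, with a span of 2.04 log2 units or 4.13-fold (limma unadjusted p = 3.84e-05, adjusted p = 0.0602), and Fn1, with a span of 1.12 or 2.17-fold (unadjusted p = 0.0476). Itgb1 spanned 0.84 log2 units (unadjusted p = 0.00688) and Itgb5 spanned 0.71. The span was larger than the difference between Cre and control for 35 of 46 members (76.1%), where this held for 80.0% of all probes. The same order of the 3 numbers in both groups was seen in 12 members (26.1%), where 25.6% of all probes showed it.

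**Figure D4:**
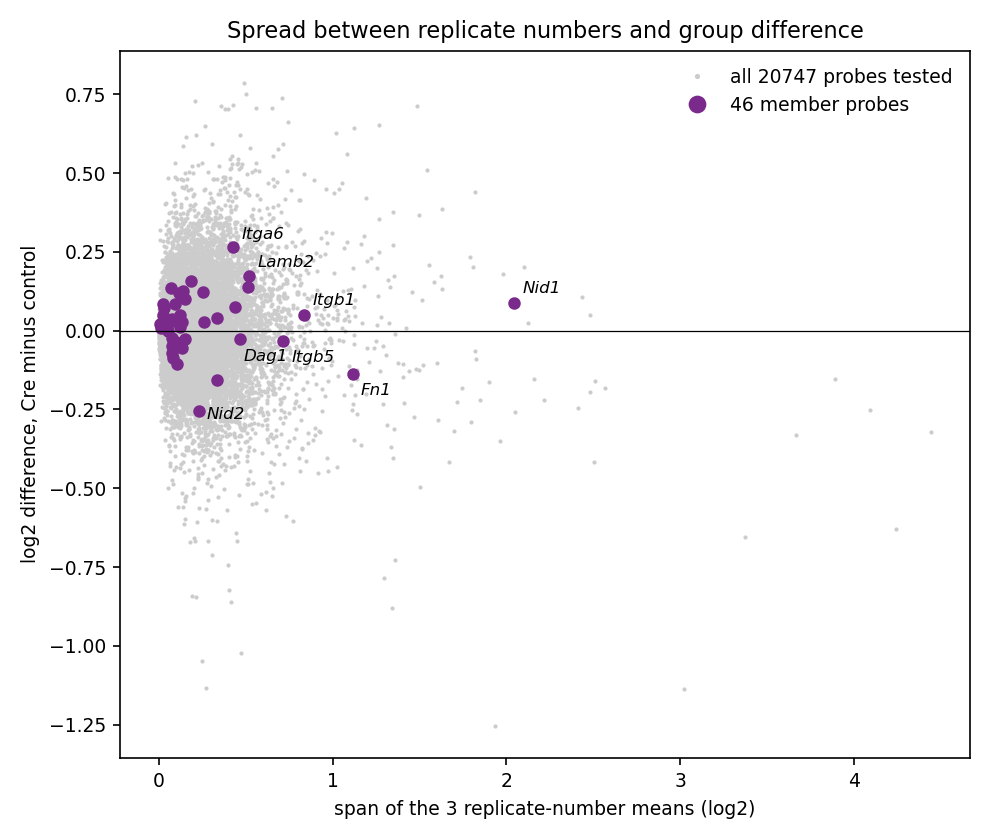
Span of the 3 replicate-number means (horizontal axis, log2) against the difference Cre minus control (vertical axis, log2), for all 20747 tested probes in grey and the 46 members in purple. Nid1 (2.04) and Fn1 (1.12) lie farthest to the right among the members, at differences of 0.09 and -0.14.

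Markers of fibroblasts and mural cells, which make much of the basement membrane and interstitial matrix around vessels, also differed between replicate numbers. Of 12 such genes, 1 of which is Vtn, 7 had an unadjusted p under 0.05 for the replicate number, where 14.0% of all probes did. In that test 0 of all probes passed the adjusted threshold. Des was above background on 5 arrays, Kcnj8 on 3 and the other 10 on all 6. Their mean log2 intensity was 7.43, 6.76 and 7.27 in Cre, against 7.60, 6.83 and 7.29 in control cultures, highest in replicate 1 and lowest in replicate 2 of both groups, as for Nid1. The summed authors' values were 9132, 5749 and 6355 in Cre, against 10509, 8835 and 6297 in control, so that replicate 3 was the lowest control array on that scale. Acta2 made up most of each sum, at 8336, 5611 and 5806 in Cre, against 9409, 8635 and 5684 in control. The interstitial collagen gene Col3a1, with one of the widest ranges, had 217, 18 and 112 in Cre, against 346, 34 and 163 in control. Not all markers followed that order. Lum was highest in replicate 3, at 17, 5 and 35 in Cre, against 26, 6 and 61 in control. Vtn was highest in replicate 2, at 7, 9 and 6 in Cre, against 10, 11 and 8 in control. The basement membrane collagen gene Col4a2, not one of the 12 markers, had 137, 23 and 63 in Cre, against 155, 44 and 55 in control. The other collagen IV genes tested had narrower ranges between replicate numbers. The part of such cells in the Nid1 and Fn1 values was not tested. Between the groups, 5 of the 12 markers were higher and 7 lower in Cre, with a median of -0.05.

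**Figure D5:**
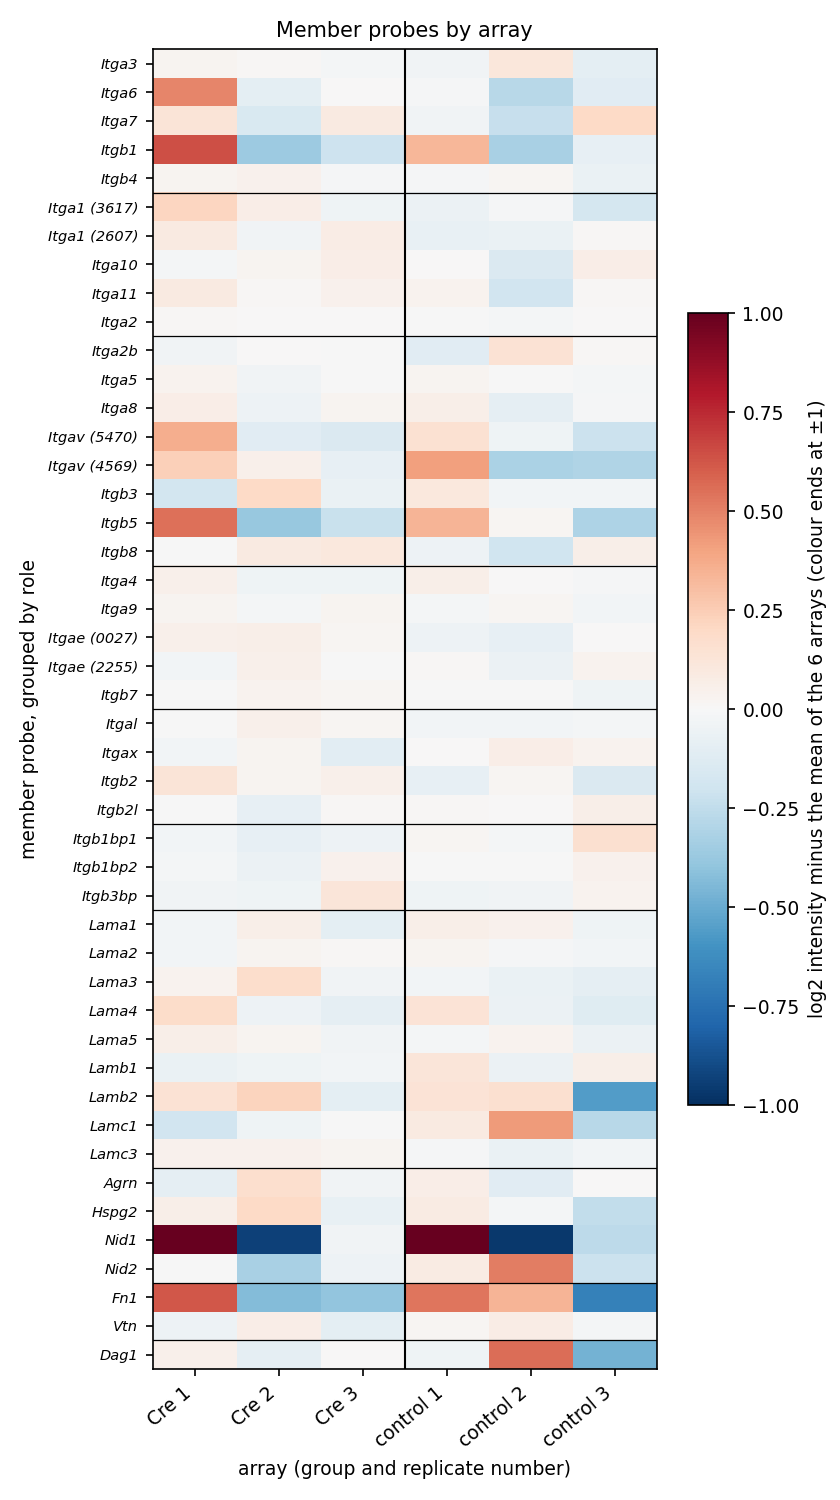
Log2 intensity of the 46 member probes on each array minus the mean of that probe over the 6 arrays, grouped by role, with Cre arrays left of the line and control arrays right of it. Red is above and blue below the mean, and colours end at 1 log2 unit. Nid1 and Itgb1 are red in replicate 1 and blue in replicate 2 of both groups, while most other rows are pale.

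Astrocyte markers were higher in Cre for 13 of 14 genes, where 49.7% of all probes were higher, with a median of 0.23. At an unadjusted p under 0.05, 5 of them were higher, where 2.75% of all probes were. The smallest limma adjusted p among them was 0.406. Their mean log2 intensity was 8.88, 9.02 and 9.06 in Cre, against 8.59, 8.93 and 8.78 in control cultures, with overlap between the groups. The summed authors' values were 6996, 7735 and 8865 in Cre, against 5308, 9238 and 8114 in control, so that replicate 2 ran the other way on that scale. The part of astrocyte number or state in the values of Itgb8, Itga6 and other integrins was not tested. Endothelial markers, of which 9 of 12 were measured, had 5 higher and 4 lower in Cre, with a median of 0.01. Neuronal markers (9 of 10 measured) had 5 higher and 4 lower, with a median of 0.0007, and oligodendrocyte lineage markers (9 of 10) had 3 higher and 6 lower, with a median of -0.02.

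Other genes of integrin adhesion and of the basement membrane were read from 5 further lists, and 0 of their probes passed the adjusted threshold. Of 29 tested adaptor genes of integrin adhesions, 15 were higher and 14 lower, with a median of 0.01 and 0 at an unadjusted p under 0.05. With the block 3 of the 29 lay below that line, all higher, where 4.51% of all probes were. These were the paxillin gene Pxn, Arhgef7 and Actn4. The exchange factor gene Arhgef7 stood at 0.13 (SE 0.06) and the actin crosslinker gene Actn4 at 0.24 (SE 0.12). Among 26 other basement membrane and laminin-binding genes, 17 were higher and 9 lower, with a median of 0.03. The syndecan gene Sdc1 stood at 0.46 (SE 0.20) and the fibulin gene Fbln1 at 0.08 (SE 0.04). None of these 26 lay below an unadjusted p of 0.05 without the block, and 3, all higher, did with it, where 4.51% of all probes were.

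The dystrophin-glycoprotein complex, which holds dystroglycan to the cytoskeleton, had 12 of 15 genes tested, 7 higher and 5 lower in Cre, with a median of 0.02. Aqp4, the endfoot water channel anchored by this complex, read 10.86, 10.87 and 10.93 log2 units in Cre, against 10.69, 10.55 and 10.49 in control cultures. Its groups did not overlap on the log2 scale, at a difference of 0.31 (SE 0.06, limma unadjusted p = 0.00271, adjusted p = 0.533). In the authors' values they did, at 1061, 945 and 1123 in Cre, against 923, 959 and 928 in control. The dystrophin gene Dmd stood at 0.07 (SE 0.04), close to background.

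Of 8 tested enzymes that build the laminin-binding sugar of dystroglycan, 6 were higher and 2 lower in Cre, with a median of 0.04. Rxylt1, a xylosyltransferase of that pathway, read 9.83, 9.80 and 9.61 log2 units in Cre, against 10.09, 10.01 and 10.05 in control cultures. The groups did not overlap, at a difference of -0.30 (SE 0.07, limma unadjusted p = 0.00463, adjusted p = 0.582). Pomt2, an enzyme that starts the sugar chain, stood at 0.17 (SE 0.11). With the block both Rxylt1 and Pomt2 lay below an unadjusted p of 0.05, where 9.31% of all probes did. Without it Rxylt1 did, where 5.59% of all probes did.

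Other ligands of integrins had 18 of 22 genes tested, 12 higher and 6 lower in Cre, with a median of 0.04. At an unadjusted p under 0.05, 3 were higher, where 2.75% of all probes were. Mfge8, a secreted protein that binds the alphav integrins with its RGD motif, read 9.90, 9.74 and 9.81 log2 units in Cre, against 9.31, 9.48 and 9.53 in control cultures, a difference of 0.38 (SE 0.08, limma adjusted p = 0.533). Icam1, a ligand of the beta2 integrins, stood at 0.34 (SE 0.10, adjusted p = 0.728), and the growth factor gene Tgfb2, which the naming rule did not pick, at 0.28 (SE 0.09, adjusted p = 0.762). Whether the Tgfb2 product itself binds an integrin was not checked here. With the block 5 of the 18 lay below an unadjusted p of 0.05, all higher, where 4.51% of all probes were higher at that line. These lists were chosen with earlier results of the same arrays known.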

How the data were processed

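Gene expression was measured in 6 astrocyte samples on oligonucleotide arrays of 1 colour, with Cy5 on aminoallyl RNA amplified from total RNA, per the labels. The deposited scanner files hold a median intensity and a local background intensity per spot, not subtracted, per the file headers. The authors also deposited processed intensity values on a linear scale, each column with a median of 25 and 1609 to 3178 empty cells, and their scaling and the genome build were not given in the sources used here. All columns matched a sample, so 0 were left out.

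Blank spots averaged 62.4 to 70.8 units. Spot intensities were corrected by normexp against the blank spots (nec, offset 50), log2 transformed and quantile normalised in limma 3.58.1 (R 4.3.3). The local background column followed the signal of the spots and served as an alternative only. On each array the 0 to 9 probe spots that carried a scanner mark were dropped. Probes above the blank mean plus 2 SD on at least 3 of 6 arrays were tested, 20747 in number, with lmFit and eBayes, two-sided, and Benjamini-Hochberg adjustment over all of them. The offset compresses fold changes of dim probes, and precision is limited by there being 6 arrays. The fit was tested on simulated data.

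The labels number the replicates alike in both groups. After subtraction of the group mean, same-numbered arrays correlated at 0.498, 0.425 and 0.436 over probes and the other pairs at -0.372 to -0.167. Deviations within a group cancel out, so the negative values follow in part from the positive ones. The numbers were treated as pairing the samples only in the fit with the block and where same-numbered pairs are given. That pairing rests on the numbers and the correlation, since the labels state no shared culture, litter or day. The main fit had no block.

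Of 23473 probes, 20690 had 1 gene symbol in the platform annotation, 0 had several and 2783 were unnamed here. Of these, 20556 matched RefSeq's table, and 0 symbols changed. The members and lists were chosen with earlier results of these data known. Named members were the 12 probes with the smallest unadjusted p and the brightest of each role, with every tested probe of their genes, and from each other list the 2 genes with the smallest p. Alternatives changed the background, offset, scaling, filter, block, array weights and the arrays included.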

Additional observations from a re-analysis of the deposited data

How the results depend on the processing

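No member and no probe passed the adjusted threshold in any alternative run (0 in each). Members at an unadjusted p under 0.05 numbered 0 in the fit reported and 2 with the local background column, 1 with plain subtraction, 2 with an offset of 16, 3 in the authors' values, 3 with no filter, 2 with the replicate block and 1 with array weights, and from 0 to 3 with 1 array left out. The replicate block left the difference of every tested member as it was, and it raised the members whose 95% interval lay within 1.5-fold to 42, against 36 without it, and within 2-fold to 46, against 44. The authors' values gave 13 members higher and 31 lower, and with 1 array left out 24 to 33 were higher and 13 to 22 lower. The member median was 0.0736 with the local background column, 0.0479 with an offset of 16, -0.0634 in the authors' values and 0.0127 with array weights, and from 0.0105 to 0.0392 with 1 array left out.

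The sign turned for these named members. With the local background column the difference was -0.0789 for Itga1 (M300013617), 0.0935 for Lamb1, -0.171 for Itga6, -0.296 for Itgb1, -0.254 for Itgav (M400014569) and 0.513 for Dag1, and with median scaling -0.0011 for Itgb1. In the authors' values it was -0.0821 for Itgae (M400012255), -0.116 for Itgb1, -0.0842 for Itgav (M300005470), -0.0308 for Itgav (M400014569), -0.0679 for Lama5 and -0.0464 for Nid1. Array weights gave -0.0038 for Itgae (M400012255), -0.0267 for Itgb1, -0.1345 for Nid1 and 0.0917 for Dag1. With 1 array left out, the values ran from -0.262 to 0.248 for Itgb1, from -0.439 to 0.659 for Nid1, from -0.509 to 0.0984 for Fn1, from -0.267 to 0.245 for Dag1, from -0.091 to 0.169 for Itgav (M300005470), from -0.0172 to 0.0325 for Itgae (M400012255), from -0.334 to 0.0182 for Lamc1 and from -0.0597 to 0.2996 for Lamb2. The cause was not tested. Of 351 values of named members under alternatives, 316 kept their sign, 2 were 0 (Lamc3 and Itgal with plain subtraction) and 33 turned. The replicate block, the run with no filter and the run with a stricter filter gave the same differences as the main fit. Signs could not turn in those runs, yet their values are counted among the 316. The count therefore overstates how stable the signs were. Dim probes, 19 of the 46 with a mean log2 intensity under 6.2, limit what a difference can show.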
